A study of Mus musculus with 4 samples.

Results

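Tuft cells are rare chemosensory cells of the epithelium, and 10 genes that mark them or carry out their work were followed here through sorted cells of the mouse stomach corpus. The members were Pou2f3, Gfi1b, Gnat3, Trpm5, Rgs13, Alox5, Il25, Dclk1, Avil and Sh2d6, taken from a list of known tuft cell genes drawn up with earlier results of these data known. All 10 were found among the 55335 gene entries of the deposited expression table, and 9 of them, all but Il25, were among the 13019 entries with a mean of at least 1 CPM (counts per 1000000 reads assigned to genes) that entered the test across genes. None of these 9 differed between the sorted fractions beyond the spread between libraries in that test, and neither did any other of the 13019 entries. In the libraries pooled from 4 mice all 10 were at least 2-fold lower in the reporter-high fraction on the log2(CPM + 1) scale, beside 18.5% of all tested entries. In those pooled from 3 mice the deposited values put 6 higher and 4 lower there, while each of the 3 corrections for library composition that were tried put 2 higher (Pou2f3 and Il25) and 8 lower. The deposited values of the 3-mouse libraries gave all tested entries a median log2(CPM + 1) difference of 0.72, higher in the reporter-high fraction. Gfi1b was the member with the largest separation of the fractions, with 0 and 0.0466 CPM (0 and 13 reads) in the reporter-high libraries against 13.1 and 24.1 CPM in the others.

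Tuft cells carry a brush of microvilli at the apex and use a signalling chain shared with taste cells, in which a G protein acts through phospholipase C and calcium release to open a cation channel. An open channel leads to the release of lipid mediators, acetylcholine and the cytokine IL-25, and in the gut IL-25 calls on innate lymphoid cells that drive type 2 immunity. In the stomach, tuft cells lie scattered among the mucous, acid-secreting and enzyme-secreting cells of the glands.

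The study took mice of the strain C57BL/6 at 6 to 8 weeks of age and sorted living, EpCAM-positive cells (EpCAM is a surface protein of epithelia) from their stomach corpus. All mice carried Iqgap3-2A-tdTomato, an allele that marks cells making Iqgap3 with red fluorescence. Cells high in the reporter (IQ3pos) were compared with cells low or negative for it (IQ3neg), with no other treatment named, in bulk libraries made by SMART-Seq2. This full-length method copies RNA into DNA and amplifies the DNA by PCR. Each fraction had 2 libraries: IQ3pos_1909A and IQ3neg_1909B, the 3-mouse pair, came from pools of 3 mice each, and IQ3pos_1910A and IQ3neg_1910B, the 4-mouse pair, from pools of 4. The labels do not say whether the libraries of a pair came from the same mice. Because animals were pooled, p-values measure only the spread between these libraries, which may be technical. In bulk RNA of this kind, fewer tuft cells and less RNA per tuft cell cannot be told apart.

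The libraries held 90714929, 115016307, 279125309 and 418401262 reads in the order IQ3pos_1909A, IQ3neg_1909B, IQ3pos_1910A and IQ3neg_1910B, so that 1 read was worth 0.0110, 0.00869, 0.00358 and 0.00239 CPM. These reads have no molecular identifiers, and every interval given below covers counting error only. All 5 epithelial markers checked (Epcam, Cdh1, Krt8, Krt18 and Krt19) were above 1 CPM in all 4 libraries. Iqgap3 itself measured 0.220 and 9.32 CPM in IQ3pos_1909A and IQ3pos_1910A, against 0.0435 and 0.452 CPM in IQ3neg_1909B and IQ3neg_1910B. It was thus higher in IQ3pos within each pair, while the library labelled IQ3pos_1909A lay below the library labelled IQ3neg_1910B. In the 3-mouse pair this rests on 20 Iqgap3 reads in IQ3pos_1909A against 5 in IQ3neg_1909B. Across the genes tested, the log2(CPM + 1) values of the IQ3pos libraries correlated at r = 0.767 and those of the IQ3neg libraries at r = 0.826, as a description. Between fractions, r was 0.673 within the 3-mouse pair and 0.776 within the 4-mouse pair. It was 0.725 for IQ3pos_1909A with IQ3neg_1910B and 0.663 for IQ3pos_1910A with IQ3neg_1909B. The IQ3pos libraries were thus less alike by this measure than the libraries of the 4-mouse pair.

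The transcription factors were examined first. Pou2f3, a POU-domain factor that tuft cells need to form, lies on chromosome 9 from 43123939 to 43210369 of GRCm38. Its level was 10.3 CPM in IQ3pos_1909A, 2.28 in IQ3neg_1909B, 0.0573 in IQ3pos_1910A and 16.0 in IQ3neg_1910B. The fractions overlapped, since the highest and the lowest IQ3pos value lay on either side of the lower IQ3neg value. Within the 3-mouse pair, Pou2f3 CPM was 4.52-fold higher in IQ3pos (95% interval 3.94 to 5.20), and within the 4-mouse pair it was 279-fold lower (171 to 488), where IQ3pos_1910A had 16 reads. On the log2(CPM + 1) scale the difference over both pairs was -1.11 with an SE of 1.54 and a limma adjusted p of 0.686.

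Gfi1b, a zinc-finger repressor known in tuft cells and in blood cell precursors, lies on chromosome 2 from 28609450 to 28621982. No read was counted for it in IQ3pos_1909A, against 13.1 CPM in IQ3neg_1909B, and IQ3pos_1910A had 0.0466 CPM (13 reads) against 24.1 CPM in IQ3neg_1910B. For the library with 0 reads a floor of 3 reads (0.0331 CPM) was set, and the 95% Poisson interval reached 0.0407 CPM. Both IQ3pos values were therefore far below both IQ3neg values. Set against a floor of 3 reads per library, Gfi1b CPM was 396-fold lower in IQ3pos within the 3-mouse pair, where the 95% interval from reads began at 322-fold and had no upper end. It was 517-fold lower within the 4-mouse pair (95% interval 302 to 971). The fitted log2(CPM + 1) difference was -4.20 with an SE of 0.96 and a limma adjusted p of 0.0882, which missed the threshold of 0.05. Gfi1b was not called by edgeR on the recovered reads (adjusted p = 0.106) and was called lower by DESeq2 (adjusted p = 8.70e-05). Over all alternatives its adjusted p ran from 8.70e-05 to 0.244.

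Gnat3 and Trpm5 stand at the start and near the end of the taste-like signalling chain. Gnat3, the alpha subunit of the taste G protein gustducin, lies on chromosome 5 from 17962549 to 18019834, and its level was 13.1, 18.5, 14.9 and 32.0 CPM in IQ3pos_1909A, IQ3neg_1909B, IQ3pos_1910A and IQ3neg_1910B. It was the steadiest member: the IQ3pos mean was 14.0 ± 1.33 CPM (SD, n = 2) and the IQ3neg mean 25.2 ± 9.54 CPM. Both IQ3pos values were below both IQ3neg values, by 1.42-fold within the 3-mouse pair (95% interval 1.32 to 1.52) and by 2.14-fold within the 4-mouse pair (2.07 to 2.22). The log2(CPM + 1) difference was -0.76 with an SE of 0.61, and the limma adjusted p was 0.490.

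Trpm5, the calcium-activated cation channel that depolarises the cell, lies on chromosome 7 from 143069153 to 143094642. Its level was 10.6 CPM in IQ3pos_1909A, 33.5 in IQ3neg_1909B, 0.0645 in IQ3pos_1910A and 75.1 in IQ3neg_1910B. Again the fractions did not overlap, but the libraries of one fraction lay far apart, since Trpm5 CPM was 165-fold lower in IQ3pos_1910A (18 reads, 95% interval 0.0382 to 0.102 CPM) than in IQ3pos_1909A. Trpm5 CPM was 3.15-fold lower in IQ3pos within the 3-mouse pair (95% interval 2.94 to 3.39) and 1165-fold lower within the 4-mouse pair (737 to 1965). The log2(CPM + 1) difference was -3.86 with an SE of 1.27, and the limma adjusted p was 0.158. Trpm5 shares 220 of its exon bases (3.44%) with Tssc4 on the opposite strand, and the strand setting of the counting is not given in the sources used here. Tssc4 itself measured 16.4, 7.29, 24.5 and 26.0 CPM in the same order of libraries.

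Rgs13, a regulator of G protein signalling that speeds the switching-off of G alpha subunits, had the highest level per length of the members in every library. It lies on chromosome 1 from 144138654 to 144177372 and measured 379 CPM in IQ3pos_1909A, 238 in IQ3neg_1909B, 103 in IQ3pos_1910A and 621 in IQ3neg_1910B. The IQ3neg values lay on either side of the higher IQ3pos value, so the fractions overlapped. Rgs13 CPM was 1.59-fold higher in IQ3pos within the 3-mouse pair and 6.01-fold lower within the 4-mouse pair (95% interval 5.93 to 6.08). Its log2(CPM + 1) difference over both pairs was -0.95 (SE 0.74, limma adjusted p = 0.485).

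The mediators were Alox5 and Il25. Alox5, the lipoxygenase that begins leukotriene synthesis, lies on chromosome 6 from 116410077 to 116461178 and measured 2.93, 31.7, 37.5 and 182 CPM in IQ3pos_1909A, IQ3neg_1909B, IQ3pos_1910A and IQ3neg_1910B. Of the members with reads in both IQ3pos libraries, it alone was more than 2-fold higher in IQ3pos_1910A than in IQ3pos_1909A, by 12.8-fold in CPM. Within each pair Alox5 CPM was lower in IQ3pos, by 10.8-fold in the 3-mouse pair (95% interval 9.53 to 12.3) and by 4.84-fold in the 4-mouse pair (4.74 to 4.94), yet IQ3pos_1910A lay above IQ3neg_1909B. The log2(CPM + 1) difference was -2.65 with an SE of 1.31, and the limma adjusted p was 0.293.

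Il25, the cytokine through which tuft cells act on innate lymphoid cells, lies on chromosome 14 from 54932695 to 54935837 and was above 1 CPM in 1 library, IQ3neg_1910B, at 3.51 CPM. The other libraries had 12 reads (IQ3pos_1909A, 0.132 CPM), 1 read (IQ3neg_1909B, 0.00869 CPM) and 2 reads (IQ3pos_1910A, 0.00717 CPM). Its mean of 0.914 CPM kept it out of the main test, so its fractions rest on 1 library with more than a few reads. The ratio of Il25 CPM in IQ3pos to that in IQ3neg was 15.2 within the 3-mouse pair with a counting interval of 2.25 to 650. Within the 4-mouse pair Il25 CPM was 490-fold lower in IQ3pos with a counting interval of 135 to 4047. With no filter on low levels, limma gave Il25 a log2(CPM + 1) difference of -0.998 and an adjusted p of 0.627.

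Dclk1, Avil and Sh2d6 are the structural and adaptor members. Dclk1, a microtubule-associated kinase widely used to stain tuft cells, lies on chromosome 3 from 55242364 to 55539068 and measured 79.4, 51.7, 9.38 and 216 CPM in IQ3pos_1909A, IQ3neg_1909B, IQ3pos_1910A and IQ3neg_1910B. Both extremes came from the 4-mouse pair, and the 3-mouse pair lay between them. Dclk1 CPM was 1.54-fold higher in IQ3pos within the 3-mouse pair (95% interval 1.48 to 1.59) and 23.1-fold lower within the 4-mouse pair (22.2 to 24.0). Its log2(CPM + 1) difference over both pairs was -1.89 (SE 1.14, limma adjusted p = 0.379). Dclk1 shares 87 exon bases with the antisense gene Gm42609.

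Avil, an actin-bundling protein of the villin family, lies on chromosome 10 from 127000709 to 127020994. Its level was 75.1 CPM in IQ3pos_1909A, 43.7 in IQ3neg_1909B, 17.1 in IQ3pos_1910A and 183 in IQ3neg_1910B, in the same order of libraries as Dclk1 from lowest to highest. Avil CPM was 1.72-fold higher in IQ3pos within the 3-mouse pair and 10.7-fold lower within the 4-mouse pair (95% interval 10.4 to 11.1). On the log2(CPM + 1) scale the difference was -1.29 (SE 0.94, limma adjusted p = 0.467). Avil shares 165 exon bases (4.86%) with Tsfm on the opposite strand. Tsfm ran from 4.94 to 52.3 CPM and was lowest in the IQ3neg libraries.

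Sh2d6, an SH2-domain adaptor, lies on chromosome 6 from 72513641 to 72521707 and measured 44.6, 36.9, 21.5 and 118 CPM in IQ3pos_1909A, IQ3neg_1909B, IQ3pos_1910A and IQ3neg_1910B. Its libraries fell in the same order as those of Dclk1 and Avil, over a smaller range. Sh2d6 CPM was 1.21-fold higher in IQ3pos within the 3-mouse pair and 5.48-fold lower within the 4-mouse pair (95% interval 5.34 to 5.63). The log2(CPM + 1) difference was -1.07 (SE 0.70, limma adjusted p = 0.423).

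**Figure D1:**
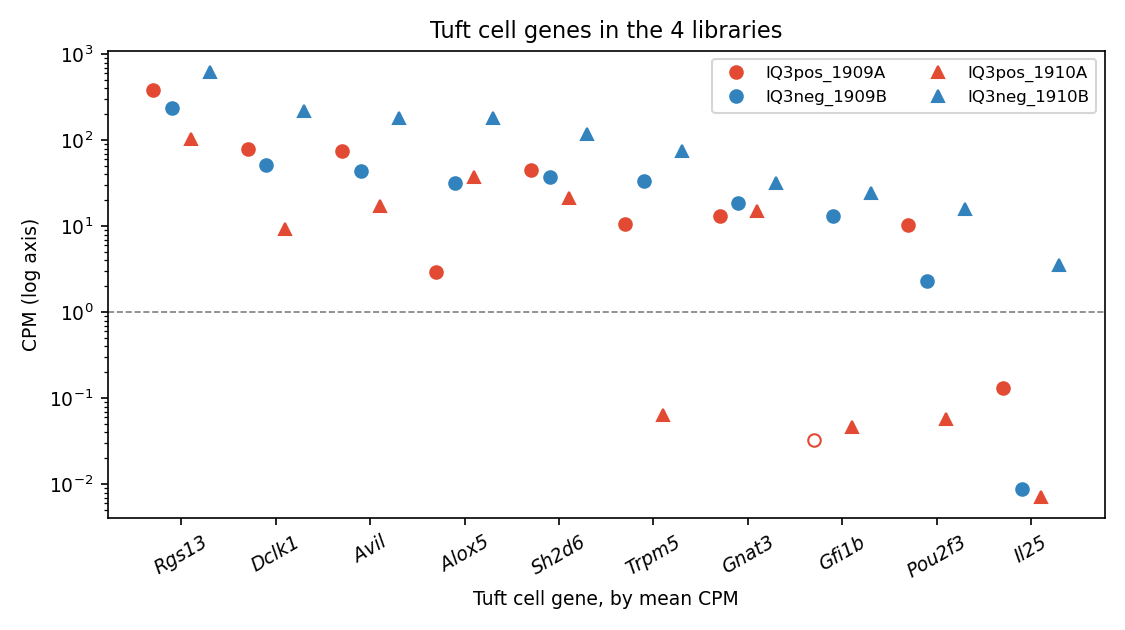
Level of each of the 10 tuft cell genes in each library in CPM on a log axis, with IQ3pos in red, IQ3neg in blue, circles for the 3-mouse and triangles for the 4-mouse pair; the dashed line marks 1 CPM, and the open circle is Gfi1b in IQ3pos_1909A, with 0 reads, drawn at its floor of 3 reads. The IQ3neg_1910B triangle is the highest point of every gene, and the IQ3pos_1910A triangle is the lowest for most of them.

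As the octamer ATGCAAAT and its first 7 bases ATGCAAA are the letters commonly read by POU-domain factors such as Pou2f3, both were searched on both strands from 250 bases before to 50 bases after each RefSeq start (GRCm38.p6). Of the members, 8 had entries, with 9 promoters between them. ATGCAAAT was in 0 of these and in 1.74% of all 32851 promoters. ATGCAAA, which every ATGCAAAT also contains, was in 1 member promoter, that of Avil, and in 4.63% of all. The 120 bases before the start are shown for Avil, which holds the match, and for Rgs13, Trpm5 and Gfi1b, the members of highest level per length and of largest separation of the fractions, with no match. They read 5′ to 3′ on the gene's strand, and capitals mark ATGCAAA or its reverse complement.
Avil: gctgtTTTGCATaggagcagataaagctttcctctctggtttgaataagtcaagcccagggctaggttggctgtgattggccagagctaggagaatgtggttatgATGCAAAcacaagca
Rgs13: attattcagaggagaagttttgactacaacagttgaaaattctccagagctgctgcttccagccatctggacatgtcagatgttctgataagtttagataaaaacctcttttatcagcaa
Trpm5: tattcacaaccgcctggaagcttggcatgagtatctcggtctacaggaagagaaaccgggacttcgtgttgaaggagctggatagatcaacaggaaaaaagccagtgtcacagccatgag
Gfi1b: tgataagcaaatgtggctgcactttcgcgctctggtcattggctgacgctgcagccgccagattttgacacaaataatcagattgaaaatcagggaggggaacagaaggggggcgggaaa
The Avil stretch is chr10:127000589-127000708 on the plus strand. The Rgs13 stretch is chr1:144177373-144177492, the Trpm5 stretch chr7:143094643-143094762 and the Gfi1b stretch chr2:28621983-28622102, all on the minus strand. The letters matched in Avil lie at -115 to -109 as the reverse complement and at -15 to -9 as written. A match is a description of the letters and says nothing of binding.

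Set against all genes, the members' test results were as follows. At an adjusted p under 0.05, limma called 0 of the 9 members tested in either direction, beside 0% of all 13019 entries called lower and 0% called higher, and the smallest adjusted p of any entry was 0.0542. At an unadjusted p under 0.05, limma had 2 members lower, Trpm5 and Gfi1b, beside 4.98% of all entries. On values scaled by TMM, a correction for library composition, limma called 0 members lower beside 0.246% of all entries. The edgeR test on recovered reads called 0 of 10 members lower beside 0.226% of entries, and DESeq2 called 1 of 10, Gfi1b, beside 9.64%.

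Within each pair there is 1 library per fraction, so these differences have no replicate check. In the 4-mouse pair, all 10 members were at least 2-fold lower in IQ3pos on the log2(CPM + 1) scale, from -1.05 for Gnat3 to -6.16 for Trpm5, beside 18.5% of all tested entries. The members' median log2 difference there was -2.96 and that of all tested entries 0.57. In the 3-mouse pair, 3 members (Gfi1b, Alox5 and Trpm5) were at least 2-fold lower in IQ3pos beside 22.2% of entries. Pou2f3 was the 1 member at least 2-fold higher, beside 43.1% of entries. The medians in the 3-mouse pair were 0.22 over the members and 0.72 over all tested entries.

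The positive medians of all genes show that the deposited CPM are centred differently in the 2 fractions. With TMM scaling, which moved the median over all tested entries and both pairs from 0.68 to -0.00079, the directions in the 3-mouse pair changed for 4 members. Dclk1, Avil, Rgs13 and Sh2d6 then had log2 differences of -0.27, -0.11, -0.23 and -0.61 within the 3-mouse pair, in place of 0.61, 0.77, 0.67 and 0.27. Only Pou2f3 at 1.07 and Il25 at 0.12 remained higher in IQ3pos, and the same 8 lower and 2 higher were found without the 20 most abundant genes and with DESeq2's size factors. On the TMM scale 4 members were at least 2-fold lower in IQ3pos within the 3-mouse pair, beside 29.1% of entries, and all 10 within the 4-mouse pair, beside 25.2%. The members' TMM medians were -0.44 in the 3-mouse pair and -3.68 in the 4-mouse pair.

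The scaling also set how many members had both IQ3pos libraries below both IQ3neg libraries. In deposited CPM these were 3 of the 10 members (Trpm5, Gnat3 and Gfi1b), beside 14.2% of all tested entries. In TMM-scaled CPM they were 8 of 10, all but Pou2f3 and Il25, beside 23.7% of entries. The gaps were narrow for several of the 8. The lower IQ3neg value of Avil was 1.08-fold its higher IQ3pos value (62.9 against 58.1 TMM-scaled CPM). The same ratio was 1.17 for Rgs13, 1.21 for Dclk1, 1.54 for Sh2d6 and 1.66 for Alox5. It was wider for Gnat3 at 2.43, Trpm5 at 5.87 and Gfi1b at 552.

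**Figure D2:**
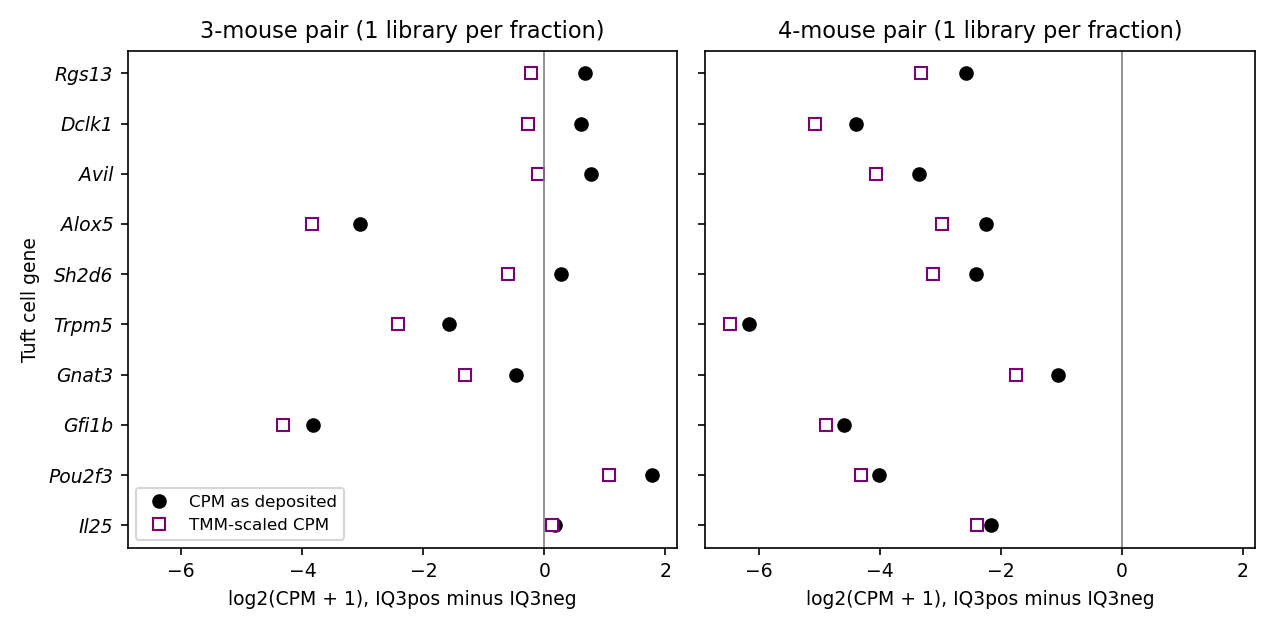
Difference in log2(CPM + 1), IQ3pos minus IQ3neg, of each tuft cell gene within the 3-mouse and the 4-mouse pair, from deposited CPM (filled black) and TMM-scaled CPM (open purple squares). All 10 genes lie left of 0 in the 4-mouse pair on both scales, and in the 3-mouse pair the black points of 6 genes lie right of 0 while the squares of only Pou2f3 and Il25 do.

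The members also differed between the libraries of one fraction. In IQ3neg, 9 members were 1.73-fold (Gnat3) to 7.01-fold (Pou2f3) higher in CPM in the 4-mouse than in the 3-mouse library, and Il25 went from 1 read to 3.51 CPM. In IQ3pos the members moved apart. Dclk1, Avil, Rgs13 and Sh2d6 were 8.47-fold, 4.40-fold, 3.66-fold and 2.07-fold lower in the 4-mouse than in the 3-mouse library, and Trpm5 and Pou2f3 165-fold and 180-fold lower. Gnat3 was 1.14-fold higher and Alox5 12.8-fold higher. IQ3pos_1910A therefore kept Gnat3, Alox5, Sh2d6, Rgs13, Avil and Dclk1 above 1 CPM, while Trpm5, Pou2f3, Gfi1b and Il25 were each under 0.1 CPM there.

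In sum the 10 genes took 615, 470, 204 and 1471 CPM in IQ3pos_1909A, IQ3neg_1909B, IQ3pos_1910A and IQ3neg_1910B. Rgs13 made up 61.6%, 50.8%, 50.7% and 42.2% of these sums, and without it the other members summed to 236, 231, 101 and 850 CPM. Members above 1 CPM numbered 8, 9, 6 and 10 in the same order. IQ3neg_1910B was thus the library with the highest summed CPM of the 10 genes, and IQ3pos_1910A that with the lowest. In deposited CPM the sums of the fractions overlapped. On the TMM scale they did not, at 475 and 150 in IQ3pos_1909A and IQ3pos_1910A against 676 and 1802 in IQ3neg_1909B and IQ3neg_1910B.

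Levels of different genes were compared as CPM per kilobase of exon. Rgs13 was first in all 4 libraries, at 229, 144, 62.5 and 375 CPM per kilobase, and Sh2d6 second at 26.4, 21.8, 12.7 and 69.9. The places below were not fixed: Avil came next in IQ3pos_1909A (22.1 CPM per kilobase), where Gnat3 had 9.59, and lay below Gnat3 in IQ3pos_1910A (5.02 against 11.0). Alox5 ranged from 0.714 CPM per kilobase in IQ3pos_1909A to 44.2 in IQ3neg_1910B. Il25 was lowest in 3 libraries, and Gfi1b, at 0 reads, in IQ3pos_1909A. Below Sh2d6 the order thus changed from library to library.

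Genes with the pattern most like the members were sought among 6859 entries with a mean of at least 10 CPM, by the distance over 4 libraries from the members' median profile of centred log2(CPM + 1). The nearest 5 were Ero1lb (0.27), 1810046K07Rik (0.44), Cdhr2 (0.48), Lrrc45 (0.50) and Lrmp (0.51). Of the members themselves, Avil lay at 0.58, Sh2d6 at 0.64 and Rgs13 at 0.80, while Alox5 lay farthest at 3.53. The distances of Trpm5 and Gfi1b were 2.72 and 2.89.

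Other genes of tuft cell biology were taken in 7 lists of 76 genes, of which 75 were in the table and 58 were tested. At an adjusted p under 0.05, limma and edgeR called 0 of them in either direction. At an unadjusted p under 0.05, limma had 7 of the 58 lower beside 4.98% of all entries, and 3 higher beside 18.2%. DESeq2, run without the filter on mean CPM, was read for all 75 genes in the table, some of which it gave no adjusted p. It called 6 of them lower (Spib, Hmx2, Vav1, Strip2, Il17rb and Tslp) beside 9.64% of its entries, and 1 higher, Il13ra2, beside 4.97%. Il17rb, Tslp and Il13ra2 were each above 1 CPM in 1 library only, so these calls rest on 1 library each. The levels were 9.57 CPM for Il17rb in IQ3neg_1910B, 3.27 for Tslp in IQ3neg_1909B and 4.17 for Il13ra2 in IQ3pos_1909A. On the log2(CPM + 1) scale, 34 of the 58 were at least 2-fold lower in IQ3pos in the 4-mouse pair, beside the 18.5% above, and 5 were at least 2-fold higher, beside 37% of all tested entries. In the 3-mouse pair 12 were at least 2-fold lower, beside the 22.2% above, and 16 higher, beside the 43.1% above. The counts by list below stand beside the same shares of all tested entries. The list medians below stand beside medians over all tested entries of 0.57 in the 4-mouse and 0.72 in the 3-mouse pair. In both pairs together, 20 of 58 had both IQ3pos libraries below both IQ3neg libraries, beside the 14.2% above.

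The lists are given one by one, with no test of any difference between them. Of the leukocyte-type signalling genes, kinases and adaptors that tuft cells share with blood cells, 10 of 12 tested were at least 2-fold lower in IQ3pos in the 4-mouse pair, with a median log2 difference of -2.61, and 4 of 12 in the 3-mouse pair, with a median of -0.15. At least 2-fold higher were 0 and 2 of them. Bmx, a Tec-family kinase, measured 28.4, 70.4, 13.2 and 131 CPM in the usual order. Of the 13 other tuft cell markers tested, 10 were at least 2-fold lower in the 4-mouse pair (median -2.16) and 3 in the 3-mouse pair (median -0.09), where another 3 were at least 2-fold higher. The most abundant of these, Cd24a, a surface glycoprotein, had 749, 276, 525 and 472 CPM, and Tmem176b had 105, 93.2, 52.0 and 146 CPM.

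Among the eicosanoid genes, which make leukotrienes and prostaglandins, 4 of 7 tested were at least 2-fold lower in IQ3pos in the 4-mouse pair (median -2.28) and 1 in the 3-mouse pair (median 0.73). At least 2-fold higher were 1 in the 4-mouse and 3 in the 3-mouse pair. The most abundant, Pla2g4a, which frees arachidonic acid, had 253, 66.3, 296 and 162 CPM, and Lta4h, which makes leukotriene B4, 182, 51.5, 298 and 96.8 CPM, both higher in IQ3pos within each pair in deposited CPM. Alox5ap and Hpgds were named after their values were seen. Alox5ap, the protein that presents arachidonic acid to Alox5, measured 48.4, 28.9, 7.13 and 107 CPM, and Hpgds, the prostaglandin D synthase, 45.1, 41.1, 15.7 and 89.5 CPM, both in the library order of Dclk1.

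Taste transduction partners had 3 of 6 tested genes at least 2-fold lower in IQ3pos in the 4-mouse pair (median -0.84) and 0 in the 3-mouse pair (median 0.13), and 1 at least 2-fold higher in the 4-mouse pair. Gnb1, a G protein beta subunit found in most cells, had 2345, 1580, 2052 and 1604 CPM, and Gnai2, an inhibitory alpha subunit, 22.7, 17.4, 5.02 and 33.1 CPM. The other tested genes of the list were named after their values were seen. Gng13 and Plcb2, the gamma subunit and the phospholipase that work with gustducin in taste cells, measured 3.15, 2.76, 0.369 and 4.65 CPM and 0.209, 0.939, 0.0537 and 4.75 CPM, lowest in IQ3pos_1910A. Itpr3, the calcium release channel of the chain, and Trpm4, a cation channel related to Trpm5, were highest in IQ3pos_1910A, at 4.83, 9.98, 23.1 and 9.66 CPM and at 0.165, 0.0782, 7.30 and 3.60 CPM.

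Of 8 transcription factors and co-activators tested, 3 were at least 2-fold lower in IQ3pos in the 4-mouse pair (median -0.19) and 2 in the 3-mouse pair (median 0.03), where 3 were at least 2-fold higher. The abundant factors Sox9 (534, 169, 440 and 369 CPM) and Sox4 (82.9, 26.3, 41.1 and 37.5 CPM) were higher in IQ3pos within each pair in deposited CPM, and lower there in the 4-mouse pair after TMM scaling. Of 8 genes of the cytoskeleton and the apical tuft, 3 were at least 2-fold lower in the 4-mouse pair (median -0.35) and 2 in the 3-mouse pair (median 0.70). At least 2-fold higher were 2 in the 4-mouse and 4 in the 3-mouse pair. The abundant Krt18 (1559, 611, 1662 and 1420 CPM) and Krt8 (866, 335, 2013 and 911 CPM) are keratins of simple epithelia in general. Of 4 genes of the type 2 cytokine circuit, 1 was at least 2-fold lower in the 4-mouse pair (median -0.34) and 0 in the 3-mouse pair (median 0.69), with 1 at least 2-fold higher in each pair. Il13ra1, a receptor chain for IL-13, had 116, 61.3, 121 and 138 CPM, and Il33, an alarm cytokine, 14.5, 0.0174, 80.0 and 14.6 CPM. Il17rb, the receptor chain for IL-25, was named after its values were seen and had 0, 0, 0.0143 and 9.57 CPM, above 1 CPM in the same single library as Il25.

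**Figure D3:**
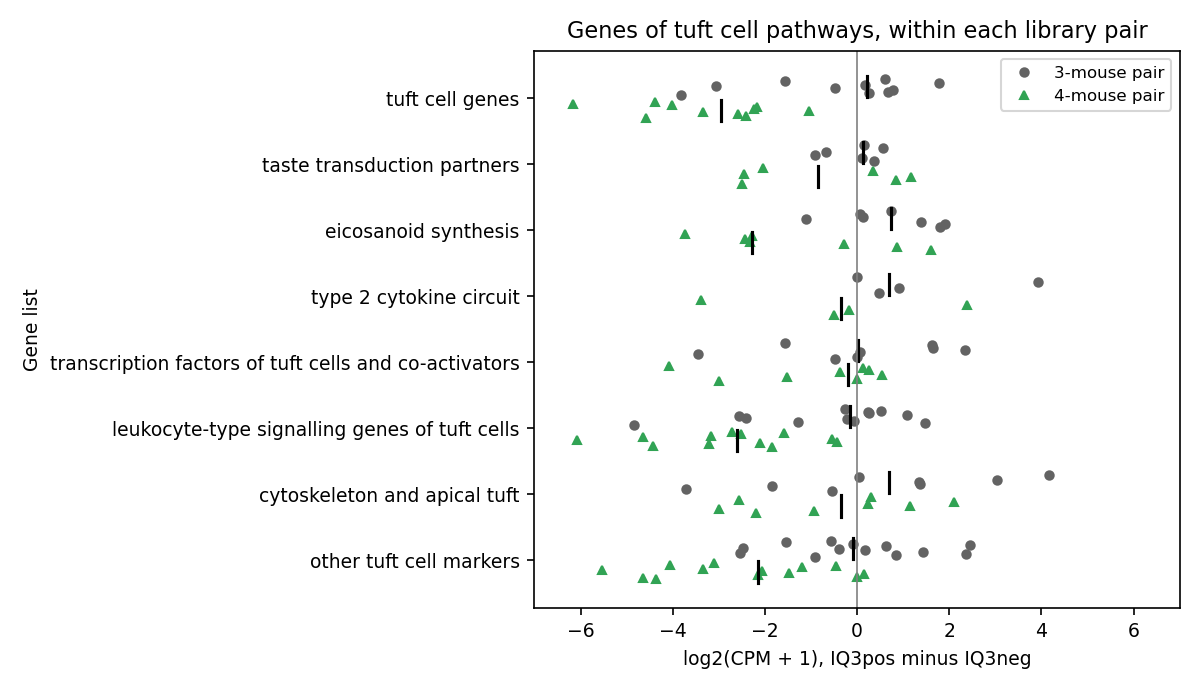
Difference in log2(CPM + 1), IQ3pos minus IQ3neg, of each tested gene of the 7 lists and of all 10 tuft cell genes (top row), with grey circles for the 3-mouse and green triangles for the 4-mouse pair and a black bar at each median. The medians of the 4-mouse pair lie left of those of the 3-mouse pair in every list, farthest left for the tuft cell genes (-2.96) and the leukocyte-type signalling genes (-2.61).

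Several members are also known in blood and other cells: Alox5, Rgs13 and Gfi1b in leukocytes or mast cells, and Dclk1 in neurons. Markers of other cells were therefore summed in each library. The 10 mast cell and basophil markers summed to 53.8 and 5.03 CPM in IQ3pos_1909A and IQ3pos_1910A and to 217 and 98.1 CPM in IQ3neg_1909B and IQ3neg_1910B, with 3, 1, 8 and 7 of them above 1 CPM in that order. The 10 B and T cell markers summed to 13.8 and 0.226 CPM in the IQ3pos libraries and to 222 and 46.8 CPM in the IQ3neg ones. Both of these sums were lower in IQ3pos in each pair. The 5 general leukocyte markers overlapped between the fractions, at 104 and 10.4 CPM in IQ3pos and 87.5 and 25.2 CPM in IQ3neg, with 4, 2, 5 and 3 above 1 CPM.

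For macrophages and dendritic cells the 8 markers summed to 993 and 223 CPM in IQ3pos and to 1476 and 266 CPM in IQ3neg, which also overlap. Cd74 alone made up most of each of these sums, at 896 and 193 CPM in IQ3pos and 1359 and 248 CPM in IQ3neg. The markers did not all go the same way. Of the 8, 1 (Csf1r) had both IQ3pos libraries above both IQ3neg libraries, and 1 (Itgam) had both below. Neuron and glia markers, 8 in all, summed to 0.353 and 0.150 CPM in IQ3pos against 9.68 and 13.3 CPM in IQ3neg. Enteroendocrine markers, 10 in all, summed to 496 and 308 CPM in IQ3pos and to 16273 and 10774 CPM in IQ3neg. The 7 chief cell markers summed to 50944 and 19531 CPM in IQ3pos and to 415787 and 404304 CPM in IQ3neg, and the 6 markers of dividing cells to 841 and 2159 CPM against 69.5 and 153 CPM. Neutrophil markers were at most 0.765 CPM in sum in any library. The part of any of these cells in the members' values was not tested.

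**Figure D4:**
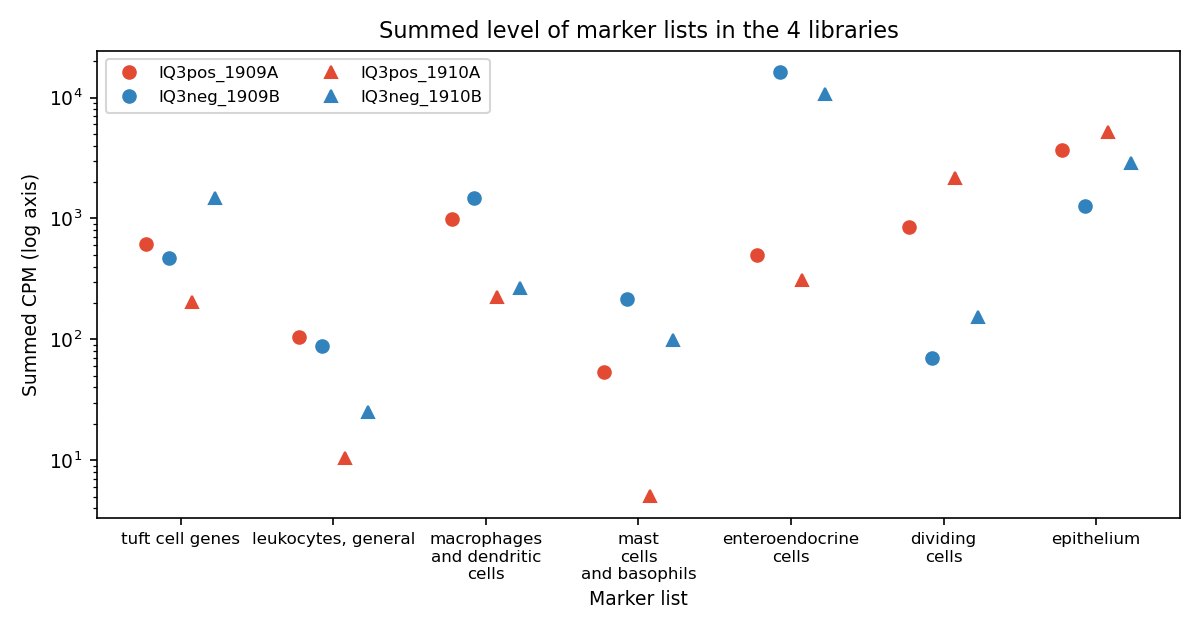
Summed CPM on a log axis of the 10 tuft cell genes and of marker lists of other cell types in each library, with IQ3pos in red, IQ3neg in blue, circles for the 3-mouse and triangles for the 4-mouse pair. The tuft cell sum runs from 204 to 1471 CPM, with fractions that overlap in these deposited CPM and not after TMM scaling, and the enteroendocrine and the mast cell and basophil sums are higher in both IQ3neg libraries than in both IQ3pos libraries.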

How the data were processed

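The values the authors deposited are CPM by gene symbol, in a single table with a column per library. STAR 2.7.1a, featureCounts of Subread 2.0.0, edgeR and GRCm38/mm10 are named in the submitters' processing notes, with no role or order; the sources used here do not state the annotation, the strand setting or the handling of multi-mapped reads. Each column sums to 1000000, so no composition factor was applied. Whole reads were recovered from the deposited CPM: 100% of the values came out within 0.05 of a whole read. Columns were matched to samples by title.

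Differences, IQ3pos minus IQ3neg, were tested on log2(CPM + 1) with limma 3.58.1 in R 4.3.3 (trend on), two-sided, with no block, for entries with a mean of at least 1 CPM, with Benjamini-Hochberg adjustment at 0.05. It had 2 residual and 3.61 prior degrees of freedom. Folds within a pair are ratios of CPM with exact conditional 95% intervals from reads, and low levels have exact Poisson intervals. Calls of 2-fold use log2(CPM + 1), which understates the change of low genes. Alternatives were other pseudocounts, filters and scalings, a replicate block, leaving out each library, edgeR 4.0.16 and DESeq2 1.42.0 on recovered reads. Symbols of 53647 of 55335 entries matched GENCODE vM21, which gave positions and exon lengths; 109 entries repeat a symbol and 27 look like dates.

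The members and lists were chosen with earlier results of these data known. All members were named, and of each list the genes past the threshold or, with none, the 2 of highest mean CPM (1 of these is not reported here); any other gene was chosen after its values were seen.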

Additional observations from a re-analysis of the deposited data

Results flagged for a closer look

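For 6 of the 10 tuft cell genes the deposited CPM put the 2 library pairs in opposite directions, with IQ3pos above IQ3neg in the 3-mouse pair and below it in the 4-mouse pair. The log2(CPM + 1) differences in the 3-mouse and the 4-mouse pair were 0.61 and -4.39 for Dclk1, 1.78 and -4.005 for Pou2f3, 0.17 and -2.16 for Il25, 0.77 and -3.35 for Avil, 0.67 and -2.58 for Rgs13, and 0.27 and -2.40 for Sh2d6. With 1 library per fraction and pair, the difference between the pairs was not tested. Under TMM scaling, without the 20 most abundant genes and with DESeq2's size factors, the opposite directions remained for Pou2f3 and Il25 and not for Dclk1, Avil, Rgs13 and Sh2d6.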

How the results depend on the processing

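The count of members called lower was 0 in the limma fit and 1 in each of 3 alternatives: Alox5 with a replicate block (adjusted p = 0.0235) and with a replicate block on TMM-scaled values (0.0115, a combination chosen after seeing the data), and Gfi1b with DESeq2 (8.70e-05). The blocked fits called 0.96% and 1.32% of all 13019 entries lower. Over its alternatives the adjusted p of Alox5 ran from 0.0115 to 0.731. The count called higher was 0 throughout. The labels do not say that numbers mark the same mice; across 13019 genes same-numbered libraries deviated together at r = 0.148. The members' median log2 difference in the 3-mouse pair, 0.22, became 0.45 and 0.14 with pseudocounts of 0.1 and 5, and -0.44, -0.57 and -0.50 with TMM scaling, without the 20 most abundant genes and with DESeq2's size factors, the last chosen after seeing the data. The median in the 4-mouse pair, -2.96, became -3.96, -2.37, -3.68, -3.92 and -3.60 in the same order. Over both pairs the median was -1.20, and -0.33 without IQ3neg_1910B, -0.71 without IQ3pos_1910A, -2.11 without IQ3pos_1909A and -2.30 without IQ3neg_1909B. Pou2f3, at -1.11, ran from -2.82 to 0.60 when each library was left out: it was 0.60 without IQ3pos_1910A and 0.08 without IQ3neg_1910B, on the other side of 0. The other 8 genes tested stayed below 0 with each library left out, by ranges as wide as -1.89 to -0.02 for Rgs13, -3.37 to -0.41 for Dclk1 and -2.33 to -0.25 for Avil, nearest to 0 without IQ3pos_1910A. Of 139 fits of single members over both pairs, 134 kept direction and side of the threshold, 3 passed it newly and 2 changed direction, beside the 3 medians of the 3-mouse pair that did; the causes were not tested. Il25, below the filter, was fitted in 4 alternatives only. In IQ3pos_1910A, levels of Trpm5, Pou2f3, Gfi1b and Il25 rest on 18 reads or fewer.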
